A study of Mus musculus with 16 samples.

Results

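The genes described here code for ion exchangers and cotransporters of the solute carrier (SLC) families Slc4, Slc8, Slc9, Slc12, Slc24 and Slc26. They were chosen by symbol alone, as every gene whose symbol begins with one of these family names followed by the letter a. The scaffold genes Slc9a3r1 and Slc9a3r2 were left out of this choice. This gave 44 of the 19938 genes named on the arrays: 11 of Slc26, 10 of Slc4, 8 of Slc12, 7 of Slc9, 5 of Slc24 and 3 of Slc8. Slc4a1ap meets the naming rule although its product is not a carrier. Slc8b1, Slc9b1, Slc9b2 and Slc9c1 do not meet it. They were counted below in the lists of calcium pumps (Slc8b1) and of sodium proton exchanger partners (the others). Expression was measured on Affymetrix whole-transcript arrays in N25/2, an immortalized line of embryonic mouse hypothalamic cells. Deprived cells were kept in medium lacking amino acids and control cells in medium with amino acids. At 5 h there were 4 deprived and 4 control arrays, and at 1, 2, 3 and 16 h there was 1 deprived and 1 control array. All 16 samples came from this single line, and no genetic change or drug treatment is named for any group.

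Exchangers and cotransporters use the gradient of one ion to move another, so they set the pH, volume, chloride and calcium of a cell without spending ATP directly. Sodium proton exchangers of the Slc9 family remove acid from the cytosol or, on endosomes and the Golgi, carry protons out of the lumen. Slc4 carriers move bicarbonate, Slc12 carriers couple chloride to sodium or potassium, Slc26 carriers exchange anions such as sulfate, chloride and bicarbonate, and Slc8 and Slc24 carriers extrude calcium in return for sodium. In neurons the balance between chloride-importing and chloride-exporting Slc12 carriers sets the response to the transmitter GABA. The source series asked how SLC genes respond when amino acids are withheld, and for these families the comparison was deprived minus control at each time.

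The deposited values are log2 levels from 3.07 to 14.2, and array medians lay between 7.02 and 7.12. Every difference is a log2 difference, deprived minus control, and at 5 h it carries the standard error (SE) of the limma fit with n = 4 arrays per group. Nothing in the labels tells whether the 4 samples of each group were grown as separate cultures, and a p-value therefore reflects only how far these samples vary, part of which may be technical. In both groups the 5 h array numbered 4 stood apart from the other 3, and calls of the exchangers and cotransporters that depend on these 2 arrays are given with and without them. A list of 8 amino acid response genes was higher in deprived cells at 5 h in 8 of 8 genes, with a median difference of 1.85. None of the 6 neuron markers lay above the median gene level of 7.47, and of the 4 measured hypothalamus markers 1, Sim1, did. All 3 neural progenitor markers did, and so did 3 of the 4 fibroblast markers, Col1a1, Col1a2 and Pdgfrb. Fewer cells of a kind and less RNA per cell cannot be told apart in these bulk samples.

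At 5 h the endosomal exchanger gene Slc9a9 was higher in deprived cells, and most other carriers differed little. Of the 44 genes, 1 passed the limma test at an adjusted p under 0.05 (2.27%), against 4.11% of all genes. The median difference of the 44 was -0.01, the same as over all genes, and the 44 differences ran from -0.35 for Slc4a3 to 0.98 for Slc9a9. Deprived and control arrays did not overlap for 5 of the 44 genes (11.4%), against 10.5% of all genes. Higher in deprived cells were 2 of them, Slc9a9 and Slc26a11, against 5.15% of all genes, and lower were 3, Slc9a5, Slc4a3 and Slc26a2, against 5.38%. With the array number as a block, 6 of the 44 passed (13.6%), against 18.2% of all genes. The 5 additional calls were Slc26a11, Slc24a3, Slc9a5, Slc4a3 and Slc26a2. The same 6 genes passed without both arrays numbered 4, against 13.5% of all genes. When those arrays were left out and the block was kept, 6 passed (13.6%), against 11.6% of all genes.

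Before 5 h the differences were small, and at 16 h they were wider. None of the 44 differed by at least 0.5 at 1 h, when 0.782% of all genes did, or at 2 h, when 1.77% did. At 3 h 1 gene did, Slc26a11, against 1.94% of all genes, and after a further quantile normalization none did. At 16 h 6 of the 44 did (13.6%), against 18.3% of all genes. Higher by at least 0.5 in deprived cells were 3 genes, Slc9a9, Slc9a8 and Slc26a11, against 9.36% of all genes. Lower by at least 0.5 were 3 genes, Slc12a2, Slc26a2 and Slc4a4, against 8.99%. A difference of at least 1 at 16 h was reached by 1 gene, Slc12a2, against 4.93% of all genes. These times have 1 array per group, so the differences have no replicate check and no test.

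Markers of cell types also differed at 16 h, the time with the wider differences. The mean log2 level of the 3 neural progenitor markers was 10.94 in deprived cells and 11.79 in control cells at 16 h. At 5 h it lay between 11.42 and 11.50 on the deprived arrays and between 11.63 and 11.81 on the control arrays, and 1 of the 3, Nes, passed the test. The mean level of the 4 fibroblast markers was 7.98 in deprived cells and 9.09 in control cells at 16 h, and 3 of the 4 were lower by at least 0.5. At 5 h 2 of these, Col1a1 and Col1a2, differed by -0.33 and -0.25 and passed with the block but not without it (adjusted p = 0.00827 and 0.0414 in limma). The microglia marker Tmem119 did so too, at -0.46 (adjusted p = 0.0146), and its 16 h difference was -0.68. The microglia markers Cx3cr1, Csf1r and Aif1 differed by 0.03, -0.04 and 0.05 at 5 h, and by 0.06, -0.05 and -0.22 at 16 h. Without both arrays numbered 4 the adjusted p was 0.0379 for Col1a1, 0.111 for Col1a2 and 0.03 for Tmem119. The mean fibroblast level at 5 h lay between 8.98 and 9.20 on the deprived arrays and between 9.02 and 9.48 on the control arrays. Of the markers of astrocytes (4 measured), oligodendrocytes (3) and endothelium (4) none lay above the median gene level. Of the 4 microglia markers 1, Cx3cr1, did, and Tmem119 did not. The part of the progenitor, fibroblast and Tmem119 shifts in the exchanger and cotransporter differences was not tested.

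Whether a gene was measured well above the low end of the arrays went with these counts. Of the 44 genes, 15 (34.1%) lay above the median gene level. At 16 h 5 of these 15 differed by at least 0.5 (33.3%), against 32.9% of all genes above that level. Of the other 29, 1 did (3.45%), against 3.78% of all genes at or below it. At each level, the share of exchangers and cotransporters that differed was thus within 1 percentage point of the share of all genes.

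**Figure D1:**
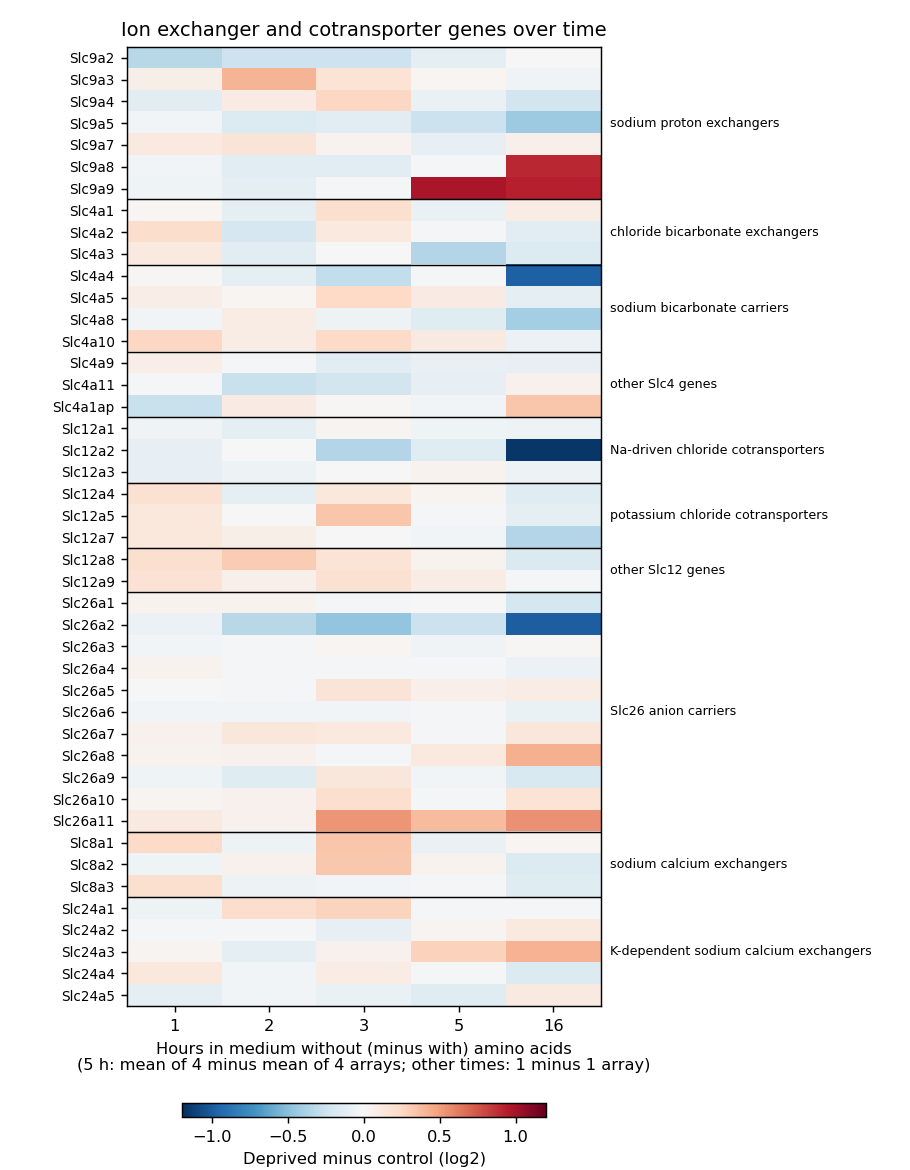
Deprived minus control log2 difference (colour) of the 44 exchanger and cotransporter genes (rows, grouped by what they carry) at 1, 2, 3, 5 and 16 h (columns); 5 h is a mean of 4 minus a mean of 4 arrays, and each other time is 1 minus 1 array. Most cells are pale, Slc9a9 is strongly coloured at 5 h and 16 h (0.98 and 0.93), and Slc12a2, Slc26a2, Slc4a4 and Slc9a8 are strongly coloured at 16 h alone.

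Among the 7 sodium proton exchangers, Slc9a9 rose at 5 h. It codes for NHE9, an exchanger of endosomes that is present in brain and limits the acidity of the endosome lumen. Slc9a9 measured 9.14, 8.98, 9.16 and 9.51 on the deprived arrays, against 8.13, 8.17, 8.12 and 8.48 on the control arrays. The lowest deprived array was thus above the highest control array, and array 4 was the highest of each group. The means were 9.20 ± 0.22 in deprived cells and 8.22 ± 0.17 in control cells (SD, n = 4 each). The difference was 0.98 (SE 0.13), a 1.97-fold higher level, with an adjusted p = 0.00272 in limma. Slc9a9 passed in 18 of 18 alternative fits, and its difference ran from 0.87 to 1.06 when single arrays were left out. Some of these fits, such as annotation symbols and the mean of a gene's rows, left its own values unchanged.

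The time course of Slc9a9 had a step between 3 h and 5 h. In deprived cells it measured 8.10, 8.15 and 8.13 at 1, 2 and 3 h, against 8.16, 8.26 and 8.15 in control cells. The differences at these times were -0.05, -0.11 and -0.02. At 16 h it measured 9.23 in deprived cells and 8.30 in control cells, a difference of 0.93 or 1.90-fold. The control arrays of all times lay between 8.12 and 8.48, and the 16 h deprived array lay above them all.

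Slc9a8 and Slc9a5, the other Slc9 genes above the median gene level, showed other patterns. Slc9a8 codes for NHE8, an exchanger of the Golgi and the apical membrane of epithelia. It measured 9.72, 9.53, 9.61 and 9.23 on the deprived 5 h arrays, against 9.70, 9.57, 9.61 and 9.29 on the control arrays. The groups overlapped throughout, with a difference of -0.02 (SE 0.13). At 16 h it measured 10.18 in deprived cells and 9.28 in control cells, a difference of 0.90 or 1.87-fold, and the deprived array was the highest of all 16 arrays. The 16 h control array was the lowest of the 8 control arrays, which ran up to 9.90.

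Slc9a5 codes for NHE5, an exchanger found mainly in neurons, where it recycles between endosomes and the surface. It measured 7.51, 7.47, 7.53 and 7.72 on the deprived 5 h arrays, against 7.75, 7.76, 7.94 and 7.82 on the control arrays. No deprived array reached a control array, and deprived array 4 came closest. The difference of -0.26 (SE 0.08) did not pass in limma (adjusted p = 0.154) and passed with the array number as a block (adjusted p = 0.0191). In RefSeq the gene models of Slc9a5 and Plekhg4 overlap from base 105369640 to base 105369881 of chromosome 8. Which gene any signal from that stretch came from was not tested. Slc9a5 was lower in deprived cells at all 5 times, by 0.03, 0.16 and 0.14 at the first 3 times and by 0.44 at 16 h, where it measured 7.35 in deprived cells and 7.79 in control cells. Lower at all 5 times were 4 of the 44 genes, Slc9a5, Slc9a2, Slc26a2 and Slc26a6, against 6.71% of all genes, although the 16 h difference of Slc9a2 rounds to -0.00.

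The remaining Slc9 genes, Slc9a2, Slc9a3, Slc9a4 and Slc9a7, lay below the median gene level. Slc9a2, Slc9a3 and Slc9a4 code for exchangers best known from epithelia, and Slc9a7 for one of the trans-Golgi network. None passed at 5 h in the limma fit with or without the block, and their 5 h differences lay between -0.11 and 0.02.

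**Figure D2:**
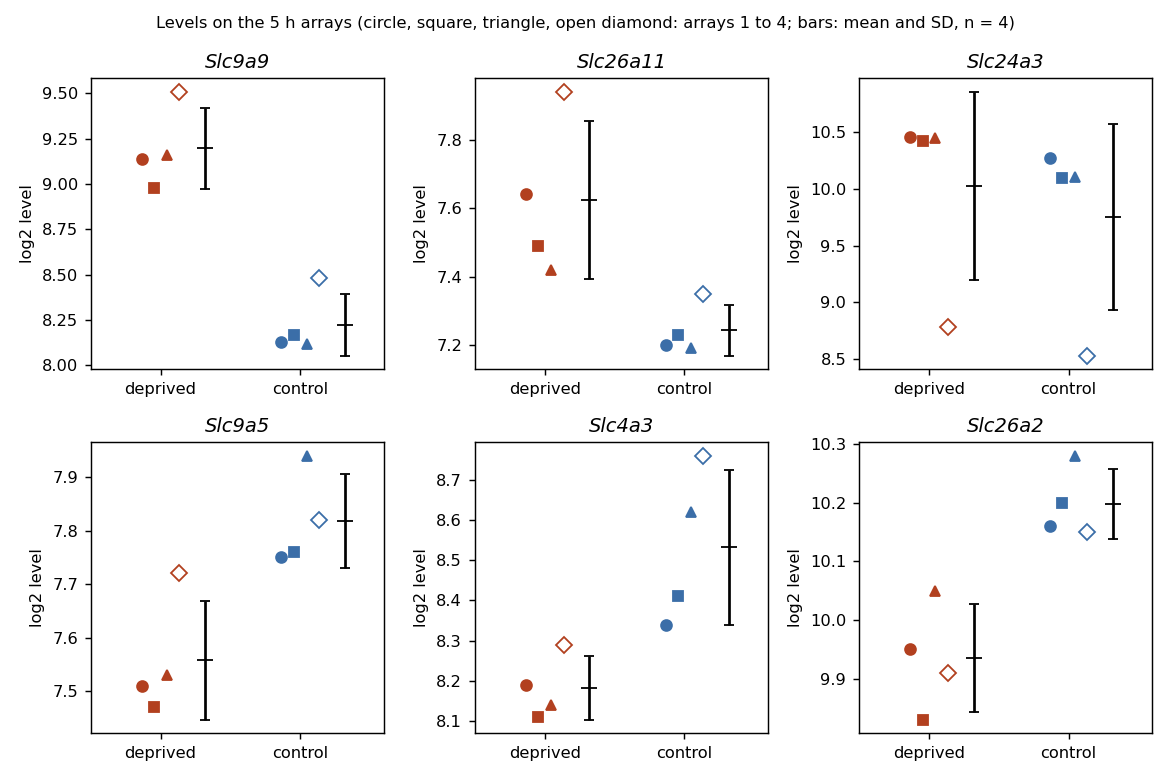
Log2 level (vertical axis, a separate range in each panel) on the 4 deprived and the 4 control arrays at 5 h for the 6 genes that passed the limma test with the array number as a block; symbols give the array number and bars the mean and SD (n = 4). Slc9a9 is the only one of them that also passed without the block, and in the Slc24a3 panel both arrays numbered 4 lie far below the other arrays.

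Sequence around the transcript starts is shown for the pair of Slc9 genes that were higher by at least 0.5 at 16 h, of which Slc9a9 was already higher at 5 h. A RefSeq table lists for each gene the 250 bases before a transcript start, here in build GRCm38.p6 and on the plus strand. The listed Slc9a9 start lies 335 bases downstream of the first base of the gene model, so its window, chr9:94669642-94669891, lies within the gene model and not upstream of it. The listed Slc9a8 start lies 111 bases downstream of the first base of its gene model, and the 139 bases before that base, chr2:167421460-167421598, are printed. Which transcripts the listed starts belong to is not given in the sources used here. Capitals mark a match to TGATGNAA, the core letters of the amino acid response element through which the transcription factor Atf4 and its partners act.
Slc9a9: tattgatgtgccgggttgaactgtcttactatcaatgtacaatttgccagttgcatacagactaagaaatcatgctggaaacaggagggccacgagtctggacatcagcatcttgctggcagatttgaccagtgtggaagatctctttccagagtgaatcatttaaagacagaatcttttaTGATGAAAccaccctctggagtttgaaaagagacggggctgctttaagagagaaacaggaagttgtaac
Slc9a8: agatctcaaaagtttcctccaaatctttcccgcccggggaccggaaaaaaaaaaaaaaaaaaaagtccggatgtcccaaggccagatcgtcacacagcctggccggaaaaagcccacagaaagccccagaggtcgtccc
The Slc9a9 window holds TGATGAAA on the gene's own strand, starting 69 bases before the listed start and 266 bases after the first base of the gene model, and has a GC content of 42.8%. The Slc9a8 window of 250 bases holds no match on either strand, and the part printed has a GC content of 51.1%. A RefSeq window was found for 35 of the 44 genes, and 2 of these (5.71%), Slc9a9 and Slc26a10, hold the motif on either strand, against 3.14% of 15614 genes. Slc26a10 differed by -0.01 (SE 0.11) at 5 h. The E-box CACGTG, a palindrome, was found in 6 of the 35 (17.1%) and in 8.11% of genes. Its 6 holders were Slc12a5, Slc12a7, Slc12a9, Slc24a4, Slc26a1 and Slc9a3, none of which passed at 5 h with or without the block. The windows of Slc12a5, Slc12a7, Slc12a9, Slc26a1 and Slc9a3 lie within their gene models, and that of Slc24a4 lies before it. A match describes the letters and does not show that a factor binds there.

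Among the bicarbonate carriers of the Slc4 family, no gene passed the unblocked limma fit at 5 h. Slc4a3 alone passed with the block, against 18.2% of all genes. The chloride bicarbonate exchangers bring chloride in and bicarbonate out, which lowers cell pH. Slc4a3, which codes for the exchanger AE3 of heart and brain, measured 8.19, 8.11, 8.14 and 8.29 on the deprived arrays, against 8.34, 8.41, 8.62 and 8.76 on the control arrays. All deprived arrays lay below all control arrays, and deprived array 4 came closest to them. The difference was -0.35 (SE 0.10). Its adjusted p in limma was 0.116, against 0.00523 with the block. At 16 h Slc4a3 measured 8.40 in deprived cells and 8.55 in control cells. A second row of Slc4a3, at a mean level of 5.45, differed by 0.03 at 5 h, so the rows of this gene did not show the same difference.

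Slc4a2, which codes for the widespread exchanger AE2, measured 10.01, 10.00, 9.90 and 10.35 on the deprived arrays at 5 h, against 9.95, 9.92, 10.05 and 10.37 on the control arrays. Array 4 was the highest of each group, the groups overlapped, and the difference was -0.01 (SE 0.13). At 16 h its difference was -0.13. Slc4a1, the anion exchanger of red blood cells, differed by -0.08 (SE 0.15) at 5 h.

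Sodium bicarbonate carriers bring bicarbonate into most cells and raise their pH. Slc4a4, which codes for the electrogenic carrier NBCe1, measured 9.86, 9.57, 10.27 and 9.16 on the deprived 5 h arrays, against 9.88, 10.00, 9.91 and 9.17 on the control arrays. Both arrays numbered 4 were the lowest of their group, and the difference was -0.02 (SE 0.25). At 16 h Slc4a4 measured 8.32 in deprived cells and 9.31 in control cells, a difference of -0.98 or 0.51-fold. That deprived array was the lowest of all 16 arrays, and the 15 other arrays lay between 9.16 and 10.27. At 3 h the difference was -0.30, and at 1 h and 2 h it was 0.01 and -0.12.

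Slc4a8, a sodium-driven chloride bicarbonate exchanger of neurons, differed by -0.15 (SE 0.11) at 5 h and by -0.41 at 16 h, where it measured 7.62 in deprived cells and 8.03 in control cells. The other 5 Slc4 genes were Slc4a5, Slc4a9, Slc4a10, Slc4a11 and Slc4a1ap, with 5 h differences between -0.10 and 0.11, none of them past the test in either fit.

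Of the Slc12 family, Slc12a2 gave the widest difference of the 44 genes at 16 h. It codes for NKCC1, which carries sodium, potassium and chloride into the cell and restores cell volume after shrinkage. Slc12a2 measured 11.28, 11.25, 11.43 and 11.41 on the deprived 5 h arrays, against 11.40, 11.51, 11.59 and 11.47 on the control arrays. The deprived array was the lower of each numbered pair, the groups overlapped, and the difference was -0.15 (SE 0.08) with an adjusted p = 0.483 in limma. At 16 h it measured 10.95 in deprived cells, the lowest of all 16 arrays, and 12.12 in control cells, the highest of all 16. The difference of -1.17, or 0.44-fold, thus had a low array and a high array behind it. The highest of the other 7 control arrays measured 11.75, at 1 h.

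At the earlier times Slc12a2 measured 11.65, 11.53 and 11.37 in deprived cells at 1, 2 and 3 h, against 11.75, 11.53 and 11.72 in control cells. The deprived value was thus lower at 3 h, by 0.35. Slc12a1 and Slc12a3, the salt-reabsorbing cotransporters of the kidney, differed by no more than 0.12 at any time.

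The potassium chloride cotransporters carry chloride out of the cell. Slc12a4, Slc12a5 and Slc12a7, which code for KCC1, the neuronal KCC2 and KCC4, differed by 0.03 (SE 0.08), -0.01 (SE 0.11) and -0.03 (SE 0.13) at 5 h. At 16 h all 3 were lower in deprived cells, and Slc12a7 differed by -0.35, with 8.64 in deprived cells and 8.98 in control cells. Slc12a8 and Slc12a9, the least characterised members of the family, differed by 0.04 (SE 0.10) and 0.09 (SE 0.09) at 5 h.

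The Slc26 family held a pair of genes that differed in opposite directions. Slc26a2 codes for the sulfate transporter whose loss causes chondrodysplasias, and it supplies sulfate for proteoglycans. It measured 9.95, 9.83, 10.05 and 9.91 on the deprived 5 h arrays, against 10.16, 10.20, 10.28 and 10.15 on the control arrays. Every deprived array lay below every control array, and the difference was -0.26 (SE 0.08). Its adjusted p in limma was 0.114, and with the block it was 0.012.

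Slc26a2 was also lower in deprived cells at 1, 2, 3 and 16 h, with differences of -0.07, -0.33, -0.47 and -0.99. At 2 h it measured 10.29 in deprived cells and 10.62 in control cells, and at 3 h 9.98 in deprived cells and 10.46 in control cells. At 16 h it measured 9.11 in deprived cells, the lowest of all 16 arrays, and 10.10 in control cells, a 0.50-fold level. Of the deprived arrays, those at 1 h and 2 h overlapped the range of the 8 control arrays, and those at 3, 5 and 16 h lay below it.

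Slc26a11, which codes for a sulfate and chloride carrier, was higher in deprived cells at all 5 times, as were 6.05% of all genes. It was the 1 gene of the 44 to be so. It measured 7.64, 7.49, 7.42 and 7.94 on the deprived 5 h arrays, against 7.20, 7.23, 7.19 and 7.35 on the control arrays. The groups did not overlap, and array 4 was the highest of each. The difference was 0.38 (SE 0.11). In limma its adjusted p was 0.121, and 0.0035 with the block. Without both arrays numbered 4 the difference was 0.31, with an adjusted p = 0.0158.

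At 1, 2 and 3 h Slc26a11 measured 7.40, 7.36 and 7.47 in deprived cells, against 7.29, 7.31 and 6.93 in control cells. The 3 h difference of 0.53 stood on a control array that was the lowest of all 16. At 16 h it measured 7.97 in deprived cells and 7.42 in control cells, a difference of 0.55, and the deprived array was the highest of the 16. The neighbouring gene Sgsh codes for a lysosomal heparan sulfate sulfamidase. In RefSeq the 2 gene models share only their end bases, as Slc26a11 starts at base 119355509 of chromosome 11 and Sgsh ends at base 119355510.

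The other 9 Slc26 genes lay, like Slc26a11 (mean level 7.41), below the median gene level. Their 5 h differences lay between -0.04 and 0.12. They include Slc26a5, the motor protein prestin of outer hair cells, and Slc26a4, the pendrin of thyroid and inner ear. None passed at 5 h with or without the block. Of these 9, Slc26a8, a carrier known from sperm, had the widest difference at 16 h, 0.43.

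**Figure D3:**
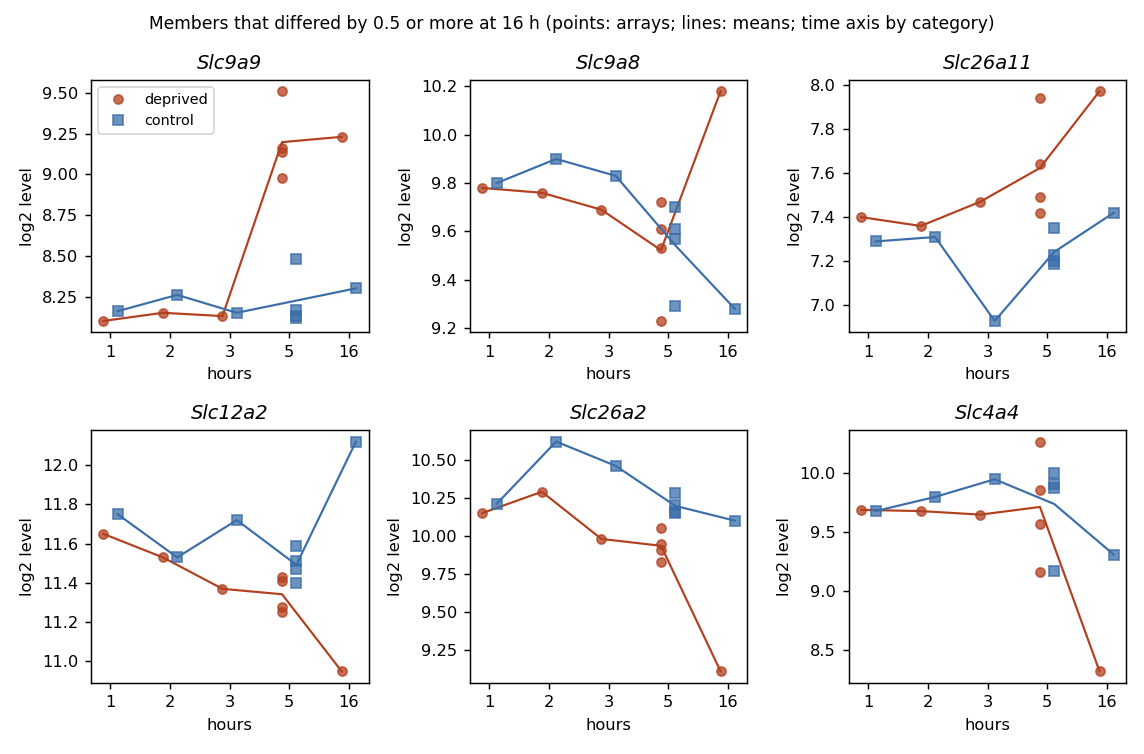
Log2 level (vertical axis, a separate range in each panel) of the 6 genes that differed by at least 0.5 at 16 h, in deprived (circles) and control (squares) cells at 1, 2, 3, 5 and 16 h (horizontal axis, by category); points are arrays and lines join the means. Slc9a9 separates from 5 h on, Slc26a2 is lower in deprived cells at every time, and Slc9a8, Slc12a2 and Slc4a4 differ by at least 0.5 at 16 h alone.

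Among the calcium-extruding exchangers, Slc24a3 was the 1 gene above the median gene level. It codes for NCKX3, which exchanges sodium for calcium and potassium. Slc24a3 measured 10.46, 10.42, 10.45 and 8.78 on the deprived 5 h arrays, against 10.27, 10.10, 10.11 and 8.53 on the control arrays. Both arrays numbered 4 lay more than 1 below the others of their group, and the deprived array was the higher of each numbered pair. The difference was 0.28 (SE 0.46). By limma the adjusted p was 1, and 0.0086 with the block. Without both arrays numbered 4 the difference was 0.29, with an adjusted p = 0.0219. At 16 h it measured 9.70 in deprived cells and 9.28 in control cells, and at 1, 2 and 3 h the difference was 0.03, -0.11 and 0.05.

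The sodium calcium exchangers Slc8a1, Slc8a2 and Slc8a3 lay below the median gene level. Slc8a1, the exchanger of the heart and many other cells, measured 5.24, 5.24, 5.25 and 5.12 on the deprived 5 h arrays, against 5.24, 5.36, 5.41 and 5.16 on the control arrays, a difference of -0.08 (SE 0.08). Slc8a3, found in brain and muscle, measured 6.83, 6.69, 6.70 and 6.51 on the deprived arrays, against 6.72, 6.83, 6.79 and 6.43 on the control arrays. In both genes the groups overlapped, and the Slc8a3 difference was -0.01 (SE 0.11). Slc8a2 differed by 0.04 (SE 0.07). The other 4 Slc24 genes, Slc24a1, Slc24a2, Slc24a4 and Slc24a5, had 5 h differences between -0.15 and 0.03.

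The mean difference over 1, 2, 3 and 16 h, fitted in limma with time as a factor, gave no call among the 44 genes or among all genes (0% of 19938). At an unadjusted p under 0.05 there were 3 of the 44 (6.82%), against 6.24% of all genes. These were Slc26a2 at -0.47 (SE 0.15), Slc26a11 at 0.31 (SE 0.11) and Slc9a2 at -0.21 (SE 0.08), with adjusted p-values of 0.777, 0.792 and 0.792. Slc9a9, whose differences were near 0 at the first 3 times, had a mean of 0.19 (SE 0.18).

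Genes that work with these carriers were taken from 5 lists of pumps, regulators, partners and channels, which together hold 59 measured genes. At 5 h 6 of the 59 passed in limma (10.2%, against 4.11% of all genes), 4 higher and 2 lower. With the block 20 passed (33.9%, against 18.2%), 11 higher and 9 lower. When both arrays numbered 4 were left out, 17 passed (28.8%, against 13.5%), 9 higher and 8 lower. The median difference of each list lay between -0.03 and 0.02. These shares were not matched for level. Of all genes 50% lie above the median gene level. Of the chloride channel list 13 of 15 did, of the WNK list 8 of 12, and of the sodium proton exchanger partners 7 of 13. The sodium and calcium pump lists had 4 of 10 and 4 of 9 there. In a limma fit of only the genes above that level, 9.6% of genes passed. The partner genes in that fit were those just counted above the level in each list, and 5 of them passed.

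The chloride channel list held 3 of the 4 higher genes among its 15, and all 3 belong to the CLC group. Clcn3, Clcn6 and Clcn7 code for proton-coupled chloride transporters of endosomes and lysosomes, where they work beside the proton pump. Clcn3 measured 9.99, 9.93, 10.06 and 10.09 on the deprived arrays, against 9.28, 9.31, 9.19 and 9.39 on the control arrays, and rose by 0.72 (SE 0.08, adjusted p = 0.000839 in limma). Clcn7 measured 10.02, 10.04, 9.92 and 10.19 on the deprived arrays, against 9.34, 9.21, 9.32 and 9.35 on the control arrays, and rose by 0.74 (SE 0.08, adjusted p = 0.00102 in limma). Their deprived and control arrays were separated by more than 0.5. Clcn6 rose by 0.40 (SE 0.08, adjusted p = 0.0181 in limma) and lost its call without any 1 of 5 arrays, control 1 or 2 or deprived 1, 2 or 3 (adjusted p up to 0.0776). At 16 h the differences of Clcn3, Clcn6 and Clcn7 were 0.87, 0.28 and 0.96.

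With the block Clcn5, Ostm1, which codes for the partner subunit of the Clcn7 product, Lrrc8a and Lrrc8d, subunits of the volume-regulated anion channel, were also higher, by 0.20 to 0.36. Lrrc8b and Cftr, the cystic fibrosis chloride channel, were lower with the block, by 0.34 and 0.28. Without both arrays numbered 4 Clcn5, Ostm1 and Cftr did not pass (adjusted p = 0.0568, 0.118 and 0.057 in limma). The calcium pump list of 9 genes held 1 that passed, Atp2a3, which codes for a calcium pump of the endoplasmic reticulum. It measured 7.65, 7.32, 7.26 and 7.74 on the deprived arrays, against 6.73, 6.60, 6.67 and 6.33 on the control arrays. Atp2a3 rose by 0.91 (SE 0.13, adjusted p = 0.00468 in limma), and its 16 h difference was 1.90. Of the 10 genes of the sodium pump list none passed in limma, where Fxyd5 had an adjusted p = 0.304. Fxyd5, which codes for a regulatory subunit, passed with the block at -0.33 (adjusted p = 0.00331).

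The partner that fell most clearly was Slc9a3r1, which codes for NHERF1, the scaffold that anchors exchangers of the apical membrane to the actin linker ezrin. It measured 9.41, 9.43, 9.28 and 9.53 on the deprived arrays, against 10.02, 9.91, 9.97 and 10.19 on the control arrays. The groups did not overlap, and Slc9a3r1 fell by 0.61 (SE 0.09, adjusted p = 0.00492 in limma). At 16 h its difference was -1.23. Ezr, which codes for ezrin, differed by -0.32 and Ahcyl2 by 0.28, both past the test with the block only. The list has 13 genes, and these 3 were the ones called with the block.

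The WNK list of 12 genes covers the kinases that switch Slc12 carriers, and 1 of them passed in the unblocked fit. Stk39 codes for SPAK, the kinase that phosphorylates and activates NKCC1. It measured 8.13, 7.94, 8.12 and 7.99 on the deprived arrays, against 8.53, 8.47, 8.36 and 8.32 on the control arrays, a difference of -0.37 (SE 0.08, adjusted p = 0.0368 in limma). The call was lost in 9 of 14 alternatives, with an adjusted p up to 0.132: after quantile normalization, after median centring, and without any 1 of the 4 deprived arrays or of control arrays 1, 2 and 3. It held with the block (adjusted p = 0.00237), and at 16 h the difference was 0.22. With the block Oxsr1, which codes for the related kinase OSR1, was higher by 0.38 and Cab39, which codes for a scaffold that activates both kinases, by 0.19. Without both arrays numbered 4 Cab39 did not pass (adjusted p = 0.101 in limma), and Nedd4l, which codes for a ubiquitin ligase, did (adjusted p = 0.0221). Lower with the block, besides Stk39, were Sgk1 by 0.38, Cab39l by 0.37 and Wnk3 by 0.30.

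**Figure D4:**
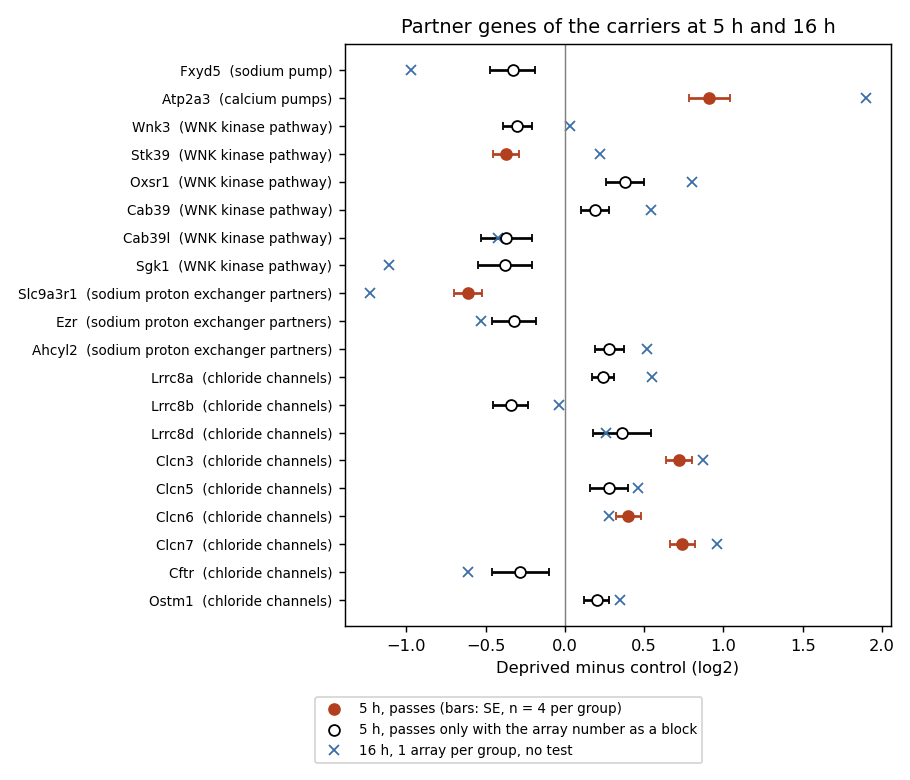
Deprived minus control log2 difference (horizontal axis) of the 20 partner genes that passed the limma test at 5 h with the array number as a block; circles are 5 h means with SE (n = 4 per group), filled where the gene also passed without the block, and crosses are the single 16 h differences. Atp2a3, Clcn3, Clcn6 and Clcn7 lie to the right and Slc9a3r1 and Stk39 to the left among the filled circles, and the 16 h cross of Stk39 lies on the other side of 0.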

How the data were processed

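Total RNA (250 ng) was made into labelled sense-strand cDNA and hybridized to whole-transcript arrays (source: the labels' protocols). Values in the table deposited by the authors are log2 levels after RMA, per the submitters' processing notes, which also name limma without a version; background and summary settings are not given in the sources used here. It has 35556 rows and 16 columns, with no missing value, no pair of identical columns and no further normalization applied here.

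Rows were named through the platform annotation: 21789 had 1 symbol, 1621 several and 12146 none. Symbols were checked through Entrez IDs (21698 of 21789 matched). Rows with 1 symbol were used and the row with the highest mean kept per gene, which left 19938 genes. Slc4a3 and Slc8a1 had 2 rows.

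The 5 h groups were tested by limma (version 3.58.1, R version 4.3.3; lmFit, eBayes, two-sided, Benjamini-Hochberg over all genes, threshold 0.05). A further limma fit with a factor for time tested the mean over 1, 2, 3 and 16 h. Other times were counted from a difference of 0.5. Genes named in full were those that passed any of these fits or the blocked fit, those past 0.5 at 5 h or 16 h, and the highest-level gene of each family with Slc9a9, Slc4a2, Slc12a2 and Slc8a1, out of 44; other values were added after they were seen. The families, lists, tests and naming rule were chosen with earlier results of these data known.

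The labels number the 5 h arrays 1 to 4 in each group. For numbers 1, 2, 3 and 4, deviations from the group means of the deprived and the control array correlated at 0.354, 0.584, 0.467 and 0.896. Each exceeds 0.1, so the number was used as a block in an alternative fit; this pairing comes from the data, not the labels, and from number 4. Deprived arrays 1, 2 and 3 correlated better with a control array of another number (0.531, 0.680 and 0.583) than with their own. Deprived arrays 1, 2 and 3 correlated with control array 4 at -0.679, -0.709 and -0.653. Alternatives were the block, quantile normalization, median centring, genes above the median level, the mean of a gene's rows, annotation symbols, a trended robust prior, array weights, single arrays or times left out, and both arrays numbered 4 left out. The blocked fit without those 2 arrays, and single arrays left out for the partner lists, were added after the data were seen. Sequence windows came from RefSeq tables of transcript starts. Other steps ran in Python (3.11.15), using pandas (2.3.3), numpy (2.4.6), scipy (1.17.1) and matplotlib (3.10.9).

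The fits were tested on simulated data for 19938 genes. Genes were shifted by 0.5 (80 genes), 1 (80) or 2 (40). The 5 h fit recovered 42.5, 83.8 and 97.5 percent of them, and 9 of its 149 calls were false. The blocked fit recovered 2.5, 68.8 and 97.5 percent, and the fit of the mean over times 10, 75 and 97.5 percent. The simulated noise was independent between arrays, with the spread of the unblocked 5 h fit and no effect shared by arrays of the same number. Each shift was the same at every time. The rates therefore hold for that setting only. In the data the unblocked fit called 4.11% of all genes, the blocked fit 18.2% and the fit of the mean 0%. The number of arrays limits the precision.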

Additional observations from a re-analysis of the deposited data

Results flagged for a closer look

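At 5 h, 24 groups of 4 arrays (12 genes, deprived and control) were examined for 1 array far from the other 3. Such an array was found in 5 groups, and in all 5 it was array 4. Chance gives about 1 in 20 for independent groups of unselected genes. These groups share the same arrays, and some of the genes were named through the blocked fit, so the count cannot be held against that rate. Slc24a3 measured 8.78 on deprived array 4, against 10.42 to 10.46 on the other deprived arrays, and 8.53 on control array 4, against 10.10 to 10.27 on the other control arrays. Slc4a4 measured 9.17 on control array 4, against 9.88 to 10.00. Slc8a1 measured 5.12 on deprived array 4, against 5.24 to 5.25. Slc9a9 measured 8.48 on control array 4, against 8.12 to 8.17. The cause of the gap was not tested. Without both arrays numbered 4, the Slc9a9 difference was 0.96 (SE 0.07, adjusted p = 1.11e-05 in limma) and the Slc4a4 difference was -0.03 (SE 0.14).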

How the results depend on the processing

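The single call at 5 h, Slc9a9, held in the 18 alternatives run, some of which left its own values unchanged. The count of exchanger and cotransporter genes called at 5 h became 6 with the replicate block, 6 without both arrays numbered 4, 6 when these were dropped and the block kept (13.6%, against 11.6% of all genes), and 7 with array weights (15.9%, against 27.5% of all genes). The array-weight calls were Slc9a9, Slc26a11, Slc26a2, Slc4a3, Slc9a5, Slc12a2 and Slc9a7. With single arrays left out the count stayed at 1. Calls for the mean over times stayed at 0 among the 44 in every alternative, while 35 of all genes passed without the 16 h arrays. The count past 0.5 at 3 h was 0 after quantile normalization, 2 after median centring and 0 among genes above the median level. The partner gene count of 6 became 20 in the blocked fit, 17 after both arrays numbered 4 were dropped, and ran from 4 to 8 with single arrays left out.

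The sign of a 5 h difference that had not passed turned in 24 recomputed gene values. Of these, 1 was of Slc24a3 and the others were of Slc4a2, Slc4a4, Slc8a3 and Slc9a8, which had differed by 0.02 or less in size. The 435 gene values recomputed in all also hold 16 h differences and genes that had passed. After median centring Slc4a2 was 0.02, Slc4a4 0.00, Slc8a3 0.02 and Slc9a8 0.00; after quantile normalization Slc8a3 was 0.01; with array weights Slc4a2 and Slc9a8 were both 0.05. With single arrays left out Slc24a3 ran from -0.13 (without control array 4) to 0.69 (without deprived array 4), Slc4a2 from -0.10 to 0.09, Slc4a4 from -0.21 to 0.16, Slc8a3 from -0.10 to 0.05 and Slc9a8 from -0.11 to 0.08. At 16 h Slc26a11 was 0.69 after quantile normalization and 0.64 after centring. The causes were not tested. Single arrays at 1, 2, 3 and 16 h leave those differences without an error.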
